A study of Homo sapiens with 6 samples.

Results

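Transcripts of mitosis were followed after 12 h of negative pressure in HaCaT, an established human skin keratinocyte line that became immortal without added genes. The set holds 56 genes listed by name for their roles in entering, carrying out and leaving mitosis. All 56 were measured among the 19775 genes of the array. Each gene is represented by the brightest probe set that names it alone, by its mean over the 6 arrays. The ambient pressure group was 3 control cultures, and the negative pressure group was 3 cultures held in an incubator under a gradient of 125 mmHg. Both groups grew in medium with serum, and the labels name no genetic change and no synchronisation of the cell cycle. Each array holds 1 culture. HaCaT is 1 immortalised line that proliferates continuously in culture, so its cycling does not stand for that of resting epidermis. Values are log2 intensities, a difference is negative minus ambient pressure on that scale, and "passed" means a limma p-value below 0.05 after Benjamini-Hochberg adjustment over all genes. The labels call the cultures biological replicates, and the p-values measure the spread between these 6 cultures only.

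Mitosis is driven by the kinase CDK1 bound to A and B cyclins and switched on by CDC25 phosphatases. Polo-like and Aurora kinases then organise the spindle, kinesin motors move microtubules and chromosomes, and kinetochores tie each chromosome to the spindle. The spindle checkpoint holds back the anaphase-promoting complex until every kinetochore is attached, after which cyclin B and securin are degraded. In epidermis, dividing cells lie in the basal layer, and most of these genes are transcribed together late in the cell cycle. That timing is known to run through the CHR element (cell cycle genes homology region), bound by the MuvB complexes, and through CCAAT boxes, bound by NF-Y. In a culture of mixed phases, fewer cells in mitosis and less of a transcript per mitotic cell cannot be told apart.

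The shared promoter letters are shown first, since they tie the genes together independently of the arrays. RefSeq promoter windows of GRCh38.p14, 250 bases before to 50 bases after the gene start, were matched for 48 of the 56 genes. AURKA, TTK, BUB3, UBE2C, CENPM, BIRC5, TPX2 and FOXM1 were not matched. The stretches below are the last 200 bases before the start of 5 genes chosen to show dense or closely spaced matches, written 5′ to 3′ along the gene. Capitals mark matches on either strand. CHR was searched as TTTGAA and also in a form with all-A in its second part, TTTAAA. The CCAAT box on the opposite strand reads ATTGG. E2F was searched as TTCCCGC and, in a second form, as TTGGCGC. CDK1 lies at chr10:60778131-60778330 (+ strand), CCNB2 at chr15:59104946-59105145 (+ strand), KIF23 at chr15:69414149-69414348 (+ strand), KIF20A at chr5:138178912-138179111 (+ strand) and TOP2A at chr17:40417897-40418096 (- strand).
CDK1: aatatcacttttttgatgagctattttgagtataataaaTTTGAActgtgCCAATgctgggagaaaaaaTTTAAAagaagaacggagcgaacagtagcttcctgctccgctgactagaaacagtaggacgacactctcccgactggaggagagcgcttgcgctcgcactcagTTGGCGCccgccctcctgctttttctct
CCNB2: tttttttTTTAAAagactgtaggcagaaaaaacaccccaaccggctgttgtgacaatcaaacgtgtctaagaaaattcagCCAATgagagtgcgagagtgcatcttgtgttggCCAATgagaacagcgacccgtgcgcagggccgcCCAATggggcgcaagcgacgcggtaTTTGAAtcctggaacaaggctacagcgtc
KIF23: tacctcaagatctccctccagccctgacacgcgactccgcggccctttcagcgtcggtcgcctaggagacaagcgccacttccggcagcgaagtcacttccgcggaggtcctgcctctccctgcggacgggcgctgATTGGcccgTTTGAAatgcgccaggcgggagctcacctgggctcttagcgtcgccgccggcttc
KIF20A: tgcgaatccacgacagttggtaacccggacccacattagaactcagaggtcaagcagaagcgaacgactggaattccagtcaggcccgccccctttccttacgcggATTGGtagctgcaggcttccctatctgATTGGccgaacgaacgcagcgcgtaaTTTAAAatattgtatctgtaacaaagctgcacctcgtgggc
TOP2A: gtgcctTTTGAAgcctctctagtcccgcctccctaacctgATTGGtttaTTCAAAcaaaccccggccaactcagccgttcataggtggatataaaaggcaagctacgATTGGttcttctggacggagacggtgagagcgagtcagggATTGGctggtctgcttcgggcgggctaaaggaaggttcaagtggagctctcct

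CCNB2 showed 3 CCAAT boxes at regular steps ahead of a TTTGAA that began 29 bases before the start, and a further CCAAT lay outside the printed stretch. In KIF23 the inverted CCAAT and the TTTGAA began 64 and 55 bases before the start. Over the windows, CHR letters were found in 37 of 48 members (77.1%) against 18.9% of the 15384 array genes with a promoter entry. CCAAT was found in 37 of 48 (77.1%) against 36.1%, and both together in 30 of 48 (62.5%) against 7.48%. E2F letters were found in 10 of 48 (20.8%) against 12.2%. Among 32 DNA replication and S phase genes 15.6% held CHR letters, 65.6% E2F letters and 56.25% CCAAT. CHR letters thus lay below the array share in these genes and above it in the members. E2F and CCAAT letters lay above the array share in both lists, E2F far more so in the S phase genes. Of 110 other mitotic genes 40.0% held CHR letters, 52.7% CCAAT, 23.6% both and 32.7% E2F letters. These shares describe letters in a fixed window and count a chance match like any other. Only the first entry of a gene was searched, so letters at the other starts of genes such as CDC25C, with 4 entries, were not counted. TTTAAA is its own reverse complement, and an inverted CCAAT box can share letters with the second E2F form, in which case both were counted. The 30 genes with both CHR and CCAAT letters had a median difference of -0.10, with 21 below 0, and the 18 without both a median of -0.02, with 10 below 0.

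**Figure D1:**
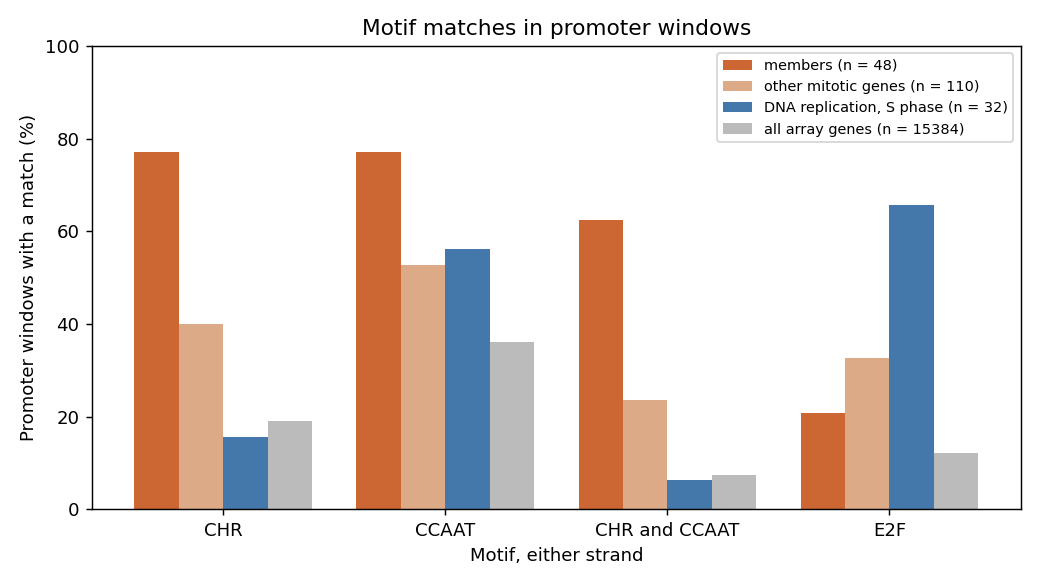
Share of promoter windows (%, vertical axis from 0) that hold at least 1 match to CHR, CCAAT, both, or E2F letters, for the members, other mitotic genes, DNA replication and S phase genes, and all array genes with a promoter entry. CHR and CCAAT together reach 62.5% in the members and 7.48% in all array genes, and E2F letters reach 65.6% in the S phase genes.

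No mitotic gene of the set passed between negative and ambient pressure in limma, 0 of 56, where 182 of all 19775 genes passed (0.920%), 0.314% on the lower and 0.607% on the higher side. At an unadjusted p below 0.05 there were 7, KIF11, KIF14, KIFC1, CENPI and BIRC5 on the lower side and CDC25B and ESPL1 on the higher. The lower side held 5 of 56 (8.93%), where 4.45% of all genes lay lower at that level, and the higher side 2, where 7.21% of all genes did. Differences ran from -0.51 to 0.44, so the widest, that of KIF23, was 1.42-fold. The median difference was -0.07, set beside 0.01 over all genes, and 35 of 56 members (62.5%) lay below 0, as did 46.6% of all genes. By numbered pair, 32, 34 and 28 members lay below 0, set beside 41.2%, 48.9% and 49.7% of all genes. The 95% interval of the difference lay within 1.5-fold in either direction for 40 of 56 members (71.4%), as for 77.1% of all genes. It lay within 2-fold for 55 members. The exception at 2-fold was KIF23. A miss of the threshold does not show that a gene was equal in both groups, and the intervals give the sizes that 3 arrays a group leave possible.

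With the replicate number as a block, 3 of 56 members passed, all lower: the kinesin gene KIF23, the centromere gene CENPI and BIRC5, which encodes survivin. That is 5.36% of the members, where 4.94% of all genes passed in that fit, 2.06% on the lower side. None passed on the higher side, where 2.87% of all genes did. The replicate numbers were taken to pair the cultures because deviations from the group means correlated across all genes, which are not independent replicates. For numbers 1, 2 and 3 these correlations were 0.27, 0.27 and 0.53. Swapped, ambient replicate 1 and negative pressure replicate 2 reached 0.43, and ambient replicate 2 and negative pressure replicate 1 reached 0.15. Among the members the swapped pairs reached 0.69 and 0.48, and same-numbered replicates 1 and 2 reached 0.45 and 0.24. The check therefore cannot decide the pairing of replicates 1 and 2, and the block and counts by pair use the numbers as given. Without both replicate 3 arrays no member passed, and 372 of all genes did (1.88%, with 0.759% lower). Nor did KIF23, CENPI or BIRC5 pass with the block when every single-gene probe set was adjusted together (adjusted p = 0.0519, 0.0715 and 0.0631 in limma). Across the 3 numbered pairs, 18 members were lower under negative pressure in every pair (32.1%), as were 16.7% of all genes, and 13 were higher in every pair (23.2%), as were 22.1% of all genes.

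**Figure D2:**
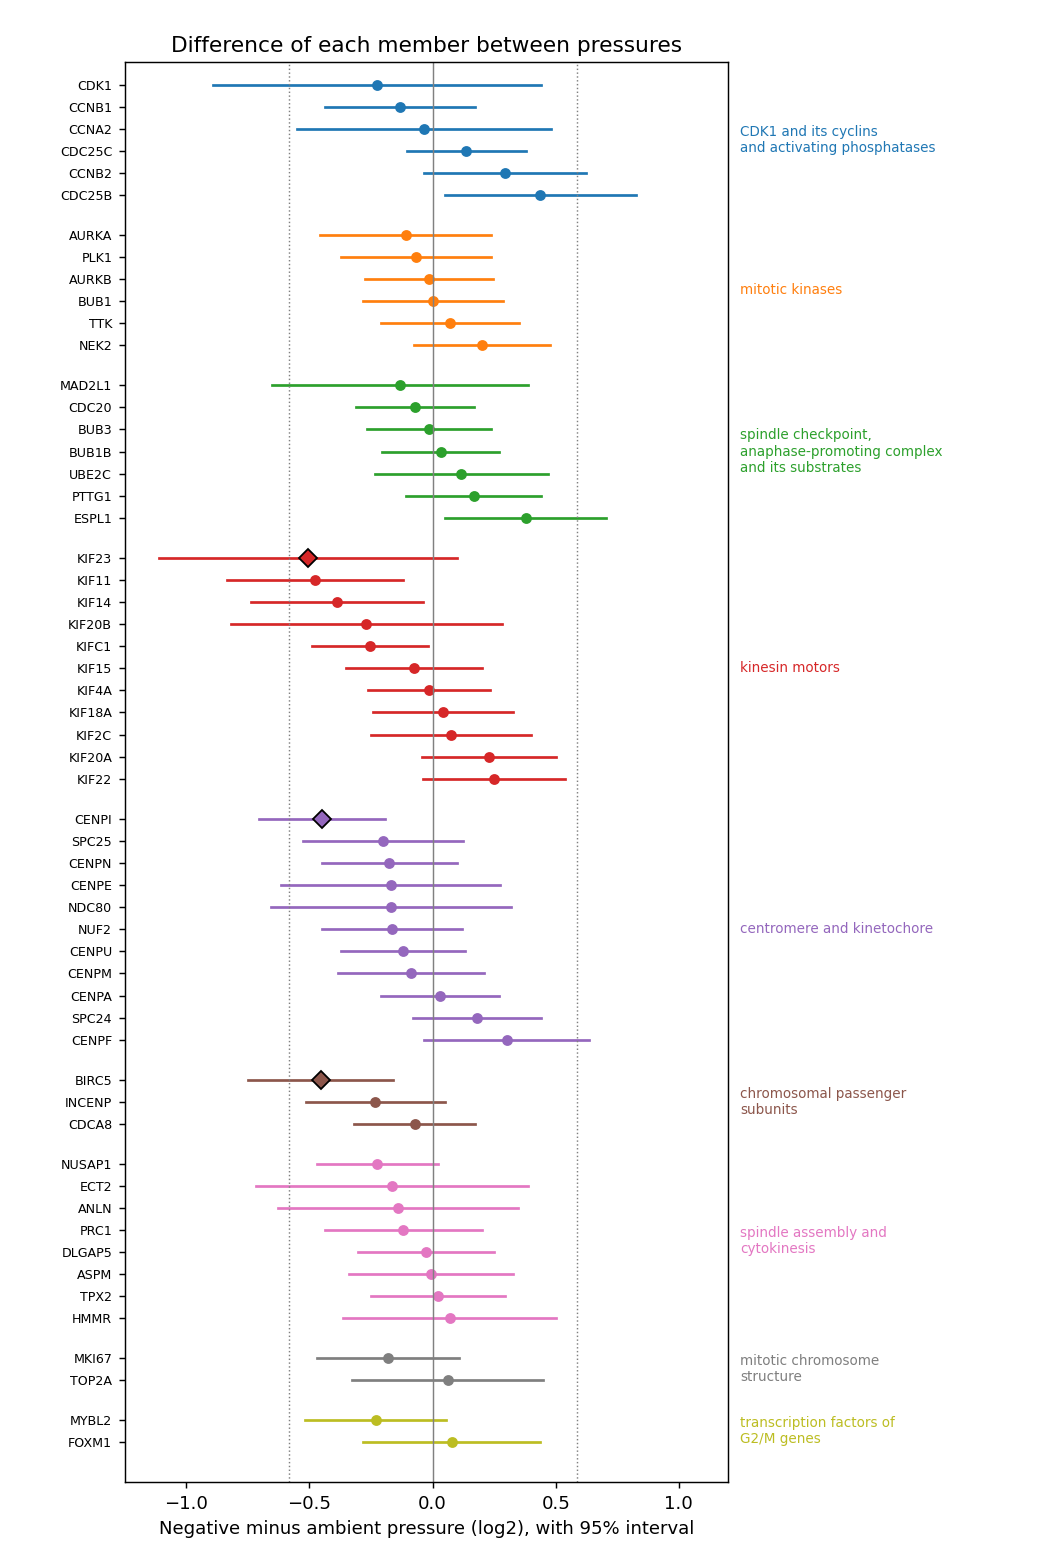
Difference of each of the 56 genes, negative minus ambient pressure (log2, horizontal axis), with its 95% interval from the limma fit, grouped by role. Diamonds with a black edge mark KIF23, CENPI and BIRC5, which passed with the replicate block, and dotted lines mark 1.5-fold. Most intervals cross 0, and all but that of KIF23 stay within 2-fold.

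A few facts of the whole series touch these values. The replicate 3 arrays of both groups stood apart on the first principal component (20.3 and 31.1, with the other 4 arrays between -18.3 and -9.07). A sign of RNA quality is how much brighter the 3' than the 5' probe set of ACTB read. This excess, not the quality itself, was smallest on the replicate 3 arrays (0.27 and 0.42, with the others between 0.64 and 0.85). Between pressures it did not separate (exact two-sided permutation test, p = 0.5, where 0.1 is the smallest possible). The same measure for GAPDH did not single out replicate 3. It read 0.18, 0.21 and 0.16 at ambient and 0.05, 0.16 and 0.09 under negative pressure (exact two-sided permutation test, p = 0.2). Of 15 keratinocyte markers 11 were measured, with KRT14 at 12.23 and KRT5 at 10.94. Of these 11, 8 lay above 0 and 4 were wholly higher under negative pressure (36.4%, where 10.3% of all genes were). At an unadjusted p below 0.05, 3 lay higher (KRT5, DSG3 and PKP1), where 7.21% of all genes did. None passed. With the block the desmosome genes DSG3 (0.63, adjusted p = 0.0146) and PKP1 (0.55, adjusted p = 0.0210) rose, where 2.87% of all genes did. The part of these shifts in the members' values was not tested. The median marker level was 3.49 for fibroblasts, 3.89 for melanocytes and 3.14 for leukocytes, all below the median gene mean of 4.997. The members' main probe sets, chosen for brightness, had means between 5.59 and 10.87.

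CDK1, its cyclins and its activating phosphatases split in direction, 3 of 6 below 0 with a median of 0.05, and none passed. CDK1, the kinase that starts mitosis, read 10.33, 10.23 and 9.16 on ambient replicates 1 to 3 and 9.93, 9.81 and 9.30 on negative pressure replicates 1 to 3. Its replicate 3 arrays were the lowest of both groups, and the groups overlapped. The difference was -0.23 ± 0.29 (SE), with a 95% interval from -0.89 to 0.44, the widest among the members (adjusted p = 0.872). In the numbered pairs it was -0.40, -0.42 and 0.14. Leaving out 1 array moved it between -0.60 and -0.02.

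CCNB1, the main B cyclin of mitotic entry, read 10.64, 10.52 and 10.33 at ambient and 10.53, 10.38 and 10.18 under negative pressure. It was lower in each numbered pair by a small step, and the groups overlapped (-0.13, interval -0.44 to 0.17, adjusted p = 0.816). CCNB2, the second B cyclin, read 10.35, 10.32 and 10.00 at ambient and 10.43, 10.40 and 10.74 under negative pressure. All 3 negative pressure arrays lay above the ambient ones, though in replicates 1 and 2 by only 0.07 and 0.08, and most of its difference of 0.30 came from replicate 3 (0.74). CCNB2 did not pass (adjusted p = 0.492), and without the replicate 3 arrays its difference was 0.075. With the mean of its probe sets it was 0.0041, since the dimmer ones lay below 0. CCNA2, the A cyclin of S and G2 phase, stood at -0.03 (interval -0.55 to 0.48).

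CDC25B, a phosphatase that activates CDK1 at the centrosome, showed the highest difference of the set. It read 9.01, 9.20 and 9.32 at ambient and 9.55, 9.32 and 9.96 under negative pressure, and the lowest negative pressure array lay just above the highest ambient one. The difference was 0.44 ± 0.17 (SE; interval 0.05 to 0.82), a 1.35-fold higher level that did not pass (adjusted p = 0.355, with the block 0.0732). CDC25C, the phosphatase of the same family that acts in the nucleus, read 6.63, 6.76 and 6.75 at ambient and 6.82, 6.86 and 6.86 under negative pressure. Its groups did not overlap but lay close together (0.14, adjusted p = 0.743). On a dimmer CDC25C probe set (mean 4.54) the difference was -0.52, so the sign depends on the probe set. Counting all roles, 4 members lay wholly higher under negative pressure (7.14%, where 10.3% of all genes did), these 3 and KIF20A. Wholly lower were 7 (12.5%, where 6.96% of all genes did): KIF14, KIFC1, CENPI, NUF2, BIRC5, NUSAP1 and MYBL2.

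**Figure D3:**
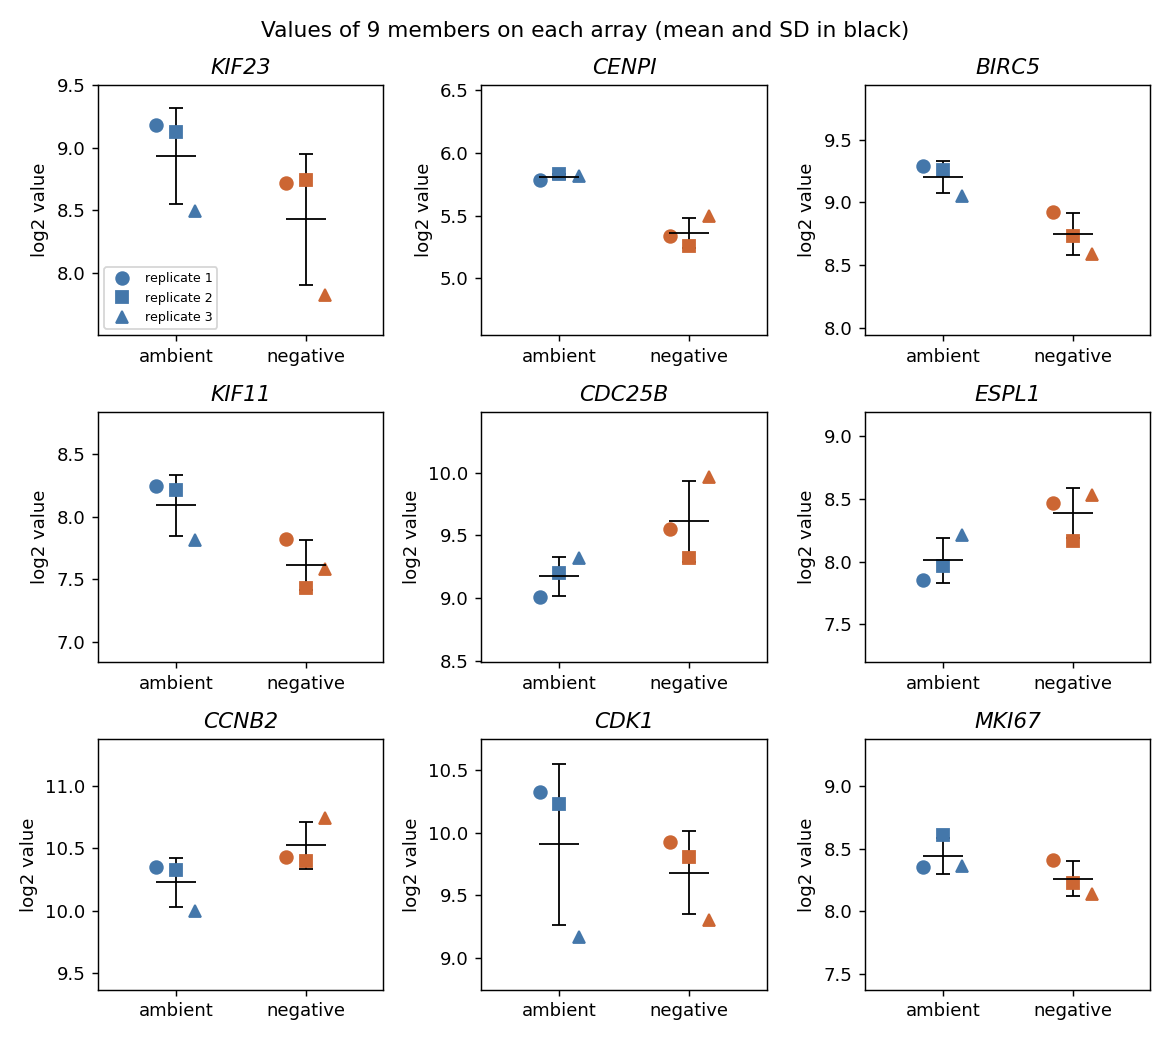
Log2 values of 9 members on each array, ambient pressure in blue and negative pressure in orange, with replicates 1, 2 and 3 as circles, squares and triangles and the mean ± SD in black (n = 3 each). Every panel spans the same range of log2 units. CENPI and BIRC5 lie wholly lower under negative pressure, and the replicate 3 arrays of CDK1 and KIF23 are the lowest in both groups.

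On their main probe sets the mitotic kinases lay closest to 0, with differences between -0.11 and 0.20, a median of -0.01 and none passing. All 6 had 95% intervals within 1.5-fold. PLK1, which drives centrosome maturation and mitotic exit, read 8.31, 8.41 and 8.53 at ambient and 8.56, 8.17 and 8.32 under negative pressure. Its arrays were fully mixed between groups (-0.07, interval -0.37 to 0.24, adjusted p = 0.923), and the sign turned to 0.0041 without the replicate 3 arrays. AURKA, the Aurora kinase of spindle poles, read 10.53, 10.45 and 10.11 at ambient and 10.39, 10.35 and 10.03 under negative pressure. Here too the replicate 3 arrays were the lowest, and the difference was -0.11 (interval -0.46 to 0.24, adjusted p = 0.883).

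AURKB, the Aurora kinase of the chromosomal passenger complex, read 8.90, 9.02 and 9.08 at ambient and 8.96, 8.89 and 9.10 under negative pressure. Its difference was -0.01 (interval -0.28 to 0.25), so these arrays left room for less than 1.5-fold either way. TTK, the checkpoint kinase also known as MPS1, read 8.34, 8.39 and 8.12 at ambient and 8.35, 8.48 and 8.24 under negative pressure (0.07, adjusted p = 0.912). NEK2, which separates centrosomes, read 9.27, 8.97 and 9.11 at ambient and 9.34, 9.40 and 9.22 under negative pressure. It had the highest difference among the kinases, 0.20 (adjusted p = 0.619), with overlap through ambient replicate 1. A second bright NEK2 probe set (mean 7.72) stood at 0.40, and its groups did not overlap. BUB1, a kinetochore kinase of the checkpoint, stood at 0.0017, and its next brightest probe set (mean 7.41) at 0.21. On the lower side, dim probe sets of AURKA (mean 4.90) and AURKB (mean 3.63) stood at -0.36.

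Genes of the spindle checkpoint and of the anaphase-promoting complex had a median of 0.03, 3 of 7 below 0, and none passed. ESPL1 encodes separase, the protease that cuts cohesin at anaphase. It read 7.86, 7.96 and 8.21 at ambient and 8.47, 8.16 and 8.53 under negative pressure, higher in each numbered pair but overlapping through ambient replicate 3. The difference was 0.38 ± 0.15 (SE; interval 0.05 to 0.71) and did not pass (adjusted p = 0.343, with the block 0.0965). A further ESPL1 probe set was also above 0.

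PTTG1 encodes securin, the inhibitor of separase, and read 10.71, 10.80 and 10.85 at ambient and 10.90, 10.83 and 11.13 under negative pressure. The groups overlapped at their edges (0.17, adjusted p = 0.713), and its probe set is of the type whose probes can bind related sequences, which for PTTG1 include near-identical copies. UBE2C, the ubiquitin-conjugating enzyme of the anaphase-promoting complex, read 9.94, 9.99 and 10.32 at ambient and 10.10, 10.04 and 10.46 under negative pressure (0.12, adjusted p = 0.875). Unlike most members, UBE2C was highest on the replicate 3 arrays of both groups. The complex's activator CDC20 stood at -0.07, and the checkpoint proteins at 0.03 for BUB1B, -0.01 for BUB3 and -0.13 for MAD2L1.

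Kinesin motors held the lowest value of the set and 3 of the 5 members at an unadjusted p below 0.05 on the lower side. These are 27.3% of the 11 kinesins, where 4.45% of all genes lay lower at that level. Of the kinesins 7 lay below 0, with a median of -0.08 and a range from -0.51 to 0.25. None passed without the block, and KIF23 fell with it. KIF23, the motor of the central spindle that cytokinesis needs, read 9.18, 9.13 and 8.49 at ambient and 8.72, 8.74 and 7.82 under negative pressure. Both replicate 3 arrays were far below their groups, so the groups overlapped although each numbered pair was lower, by -0.46, -0.39 and -0.67.

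Its difference of -0.51 had an SE of 0.27 without the block (adjusted p = 0.533) and of 0.11 with it (adjusted p = 0.0265). Leaving out 1 array moved the difference between -0.73 (ambient replicate 3 left out) and -0.20 (negative pressure replicate 3 left out), and KIF23 passed in none of these fits. A second KIF23 probe set, dimmer at a mean of 4.38, stood at -0.42. KIF11, the motor that pushes spindle poles apart, read 8.24, 8.22 and 7.81 at ambient and 7.83, 7.43 and 7.58 under negative pressure. Only ambient replicate 3 and negative pressure replicate 1 overlapped, and the difference of -0.48 ± 0.16 (SE; interval -0.83 to -0.12) did not pass (adjusted p = 0.255, with the block 0.0549). With array weights KIF11 passed (adjusted p = 0.0252), in a limma fit where 3 of 56 members and 1145 of all 19775 genes passed.

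KIF14, a kinesin of the midbody, read 8.88, 8.91 and 8.92 at ambient and 8.17, 8.64 and 8.74 under negative pressure. The ambient arrays were tightly grouped and the negative pressure arrays spread below them, with replicate 1 the lowest (-0.39, adjusted p = 0.365). KIFC1, a minus-end motor that focuses spindle poles, read 7.93, 7.90 and 7.97 at ambient and 7.63, 7.70 and 7.70 under negative pressure. This was a small and even step, -0.25 ± 0.10 (SE; interval -0.49 to -0.02), that did not pass (adjusted p = 0.382). On the other side lay KIF22 (0.25) and KIF20A (0.23), a motor of cytokinesis like KIF23, and neither passed. KIF20B stood at -0.27, and KIF2C, KIF4A, KIF15 and KIF18A between -0.08 and 0.07.

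Centromere and kinetochore genes lay mostly below 0, 8 of 11 with a median of -0.16, and CENPI was the one that fell with the block. CENPI, a subunit of the constitutive centromere network on which the kinetochore is built, read 5.79, 5.83 and 5.81 at ambient and 5.34, 5.26 and 5.49 under negative pressure. The ambient arrays lay within 0.05 of each other and every negative pressure array was lower. Among the members' main probe sets CENPI had the smallest unadjusted p. Its difference was -0.45 ± 0.11 (SE; interval -0.70 to -0.19), a 1.36-fold lower level with an adjusted p of 0.134, and of 0.0410 with the block. The next brightest CENPI probe set (mean 5.18) stood at -0.37, and the remaining, dim ones at -0.10 and -0.20.

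CENPF, a large protein of the outer kinetochore, read 8.44, 8.54 and 8.13 at ambient and 8.70, 8.47 and 8.83 under negative pressure. As for CCNB2, most of its difference of 0.30 came from replicate 3 (0.70), and it did not pass (adjusted p = 0.491). SPC24, a subunit of the microtubule-binding NDC80 complex, read 6.97, 7.02 and 7.12 at ambient and 7.10, 7.34 and 7.21 under negative pressure (0.18, adjusted p = 0.639). The other subunits of that complex lay on the opposite side without passing, SPC25 at -0.20, NDC80 at -0.17 and NUF2 at -0.16, though NDC80 stood at 0.02 without both replicate 3 arrays. CENPA, the histone H3 variant that marks centromeres, stood at 0.03 (interval -0.21 to 0.27). CENPE, CENPM, CENPN and CENPU lay between -0.18 and -0.09 on their main probe sets. The other CENPN probe sets did not move together. They stood at -0.04 (mean 7.63), at -0.52 without overlap of the groups (mean 6.13) and at 0.35 (mean 3.67).

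All 3 chromosomal passenger subunits lay below 0, with a median of -0.23. BIRC5 encodes survivin, which holds Aurora B at centromeres. It read 9.29, 9.26 and 9.06 at ambient and 8.92, 8.73 and 8.59 under negative pressure. Every negative pressure array was lower, by -0.36, -0.53 and -0.47 in the numbered pairs. The difference was -0.46 ± 0.13 (SE; interval -0.75 to -0.16), with an adjusted p of 0.183, and of 0.0351 with the block.

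The BIRC5 probe sets did not move together. The main one (mean 8.97) stood at -0.46, others at -0.14 (mean 7.85) and -0.36 (mean 5.79), and one at 0.34 (mean 7.79). On that last probe set the arrays read 7.54, 7.75 and 7.57 at ambient and 7.89, 8.02 and 7.97 under negative pressure, so its groups did not overlap in the opposite direction. With the mean of its probe sets BIRC5 stood at -0.15, so the value of BIRC5 depends on which probe set is read. The cause was not tested. INCENP, the scaffold of the complex, read 6.12, 6.04 and 6.31 at ambient and 5.82, 5.90 and 6.06 under negative pressure (-0.23, adjusted p = 0.544). CDCA8, which encodes borealin, read 8.29, 8.45 and 8.35 at ambient and 8.35, 8.26 and 8.26 under negative pressure (-0.07, adjusted p = 0.892).

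Spindle assembly and cytokinesis genes lay close to 0, 6 of 8 below it with a median of -0.07, a range from -0.22 to 0.07 and none passing. NUSAP1, which bundles microtubules at chromosomes, read 10.19, 10.35 and 10.29 at ambient and 10.11, 10.03 and 10.02 under negative pressure. Its groups did not overlap (-0.22, adjusted p = 0.483), but a second bright NUSAP1 probe set stood at 0.06. PRC1, the bundler of the central spindle, read 10.10, 10.14 and 9.86 at ambient and 10.15, 9.83 and 9.76 under negative pressure (-0.12, adjusted p = 0.859).

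ECT2, the exchange factor that activates RhoA for the cleavage furrow, read 9.70, 9.59 and 8.97 at ambient and 9.46, 9.55 and 8.76 under negative pressure. Its step between replicate 3 and the rest exceeded its difference between pressures (-0.16, adjusted p = 0.892). ANLN, the scaffold of the cleavage furrow, stood at -0.14, HMMR at 0.07, DLGAP5 at -0.03, TPX2, the activator of Aurora A, at 0.02 and ASPM at -0.01.

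The usual marker of dividing cells was not separated by pressure. MKI67, whose Ki-67 protein coats mitotic chromosomes, read 8.35, 8.61 and 8.36 at ambient and 8.41, 8.22 and 8.14 under negative pressure, with overlap (-0.18, interval -0.47 to 0.11, adjusted p = 0.694). Its other probe sets stood between -0.27 and 0.06. TOP2A, the topoisomerase that untangles sister chromosomes, read 10.67, 10.52 and 10.23 at ambient and 10.66, 10.74 and 10.21 under negative pressure. It was highest on negative pressure replicate 2 and lowest on both replicate 3 arrays (0.06, interval -0.33 to 0.45, adjusted p = 0.949).

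The transcription factors known to switch on these genes did not pass either. FOXM1 read 8.66, 8.73 and 8.64 at ambient and 9.07, 8.44 and 8.75 under negative pressure. Its negative pressure arrays lay on both sides of the ambient ones (0.08, interval -0.28 to 0.44, adjusted p = 0.925). MYBL2, which encodes B-MYB, read 7.94, 7.93 and 8.21 at ambient and 7.78, 7.69 and 7.92 under negative pressure. Every negative pressure array was lower by a narrow margin (-0.23, interval -0.52 to 0.06, adjusted p = 0.559).

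Many members moved together between replicates. In both groups the replicate 3 array lay below the mean of replicates 1 and 2 for 34 of 56 members (60.7%), where 34.0% of all genes did so, and above it for 11. The median step was -0.21 at ambient and -0.06 under negative pressure, with 0.01 and -0.01 over all genes. It was widest for CDK1 (-1.11 at ambient and -0.56 under negative pressure), KIF23 (-0.66 and -0.91), ECT2 (-0.67 and -0.74), KIF20B (-0.65 and -0.76), MAD2L1 (-0.59 and -0.68) and CCNA2 (-0.65 and -0.59). Members on the other side included UBE2C (0.36 and 0.38), CDC25B (0.21 and 0.53) and ESPL1 (0.30 and 0.22). DNA replication and S phase genes lay lower on both replicate 3 arrays in 26 of 36 cases (72.2%), and the other mitotic genes in 79 of 124 (63.7%). The ACTB measure of RNA quality moved with these arrays, with a smaller excess of 3' over 5' on replicate 3, and the GAPDH measure did not. The part of RNA quality in these steps was not tested, and these counts are a description with no test.

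**Figure D4:**
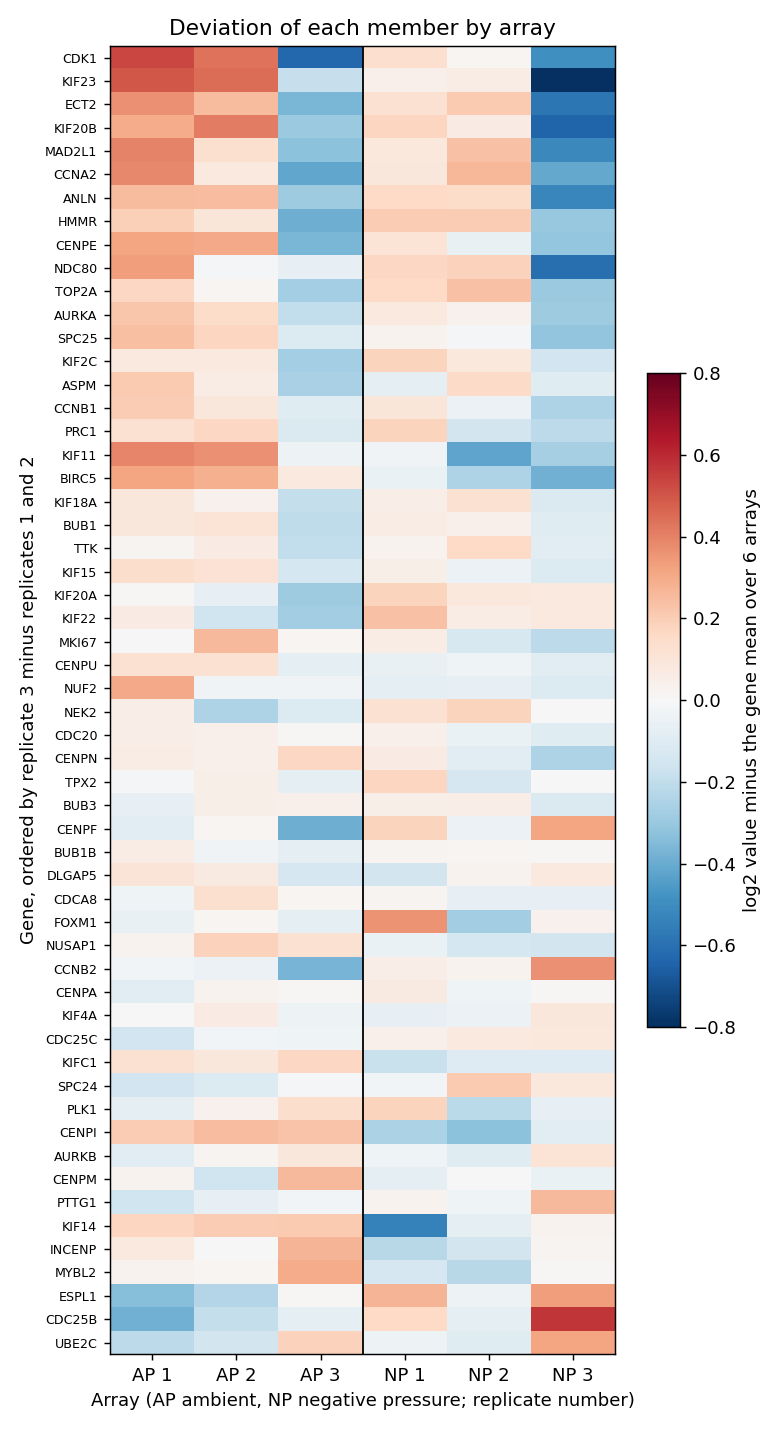
Log2 value of each member on each array minus its mean over the 6 arrays (colour), with ambient pressure (AP) left of the line and negative pressure (NP) right of it, ordered by the step between replicate 3 and replicates 1 and 2. The upper rows, led by CDK1 and KIF23, are blue on both replicate 3 arrays, and ESPL1, CDC25B and UBE2C at the bottom are red on negative pressure replicate 3.

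The probe sets of a gene give a view of how far the choice of probe set sets a value. Of the 56 members 30 had several single-gene probe sets, 57 beside the main ones, and 41 of these 57 had the sign of the main one. Among the 35 that lay above the median gene mean, 25 had the same sign. The 10 bright ones of opposite sign belonged to AURKA, BIRC5, BUB3, CDK1, ECT2, KIF2C, MAD2L1, MKI67 and NUSAP1. CDK1 had 2 of these, at 0.06 and 0.05 with means of 9.76 and 9.66, close in brightness to its main probe set (mean 9.79, -0.23). No probe set of any member passed in limma, with or without the block, when every single-gene probe set was adjusted together.

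**Figure D5:**
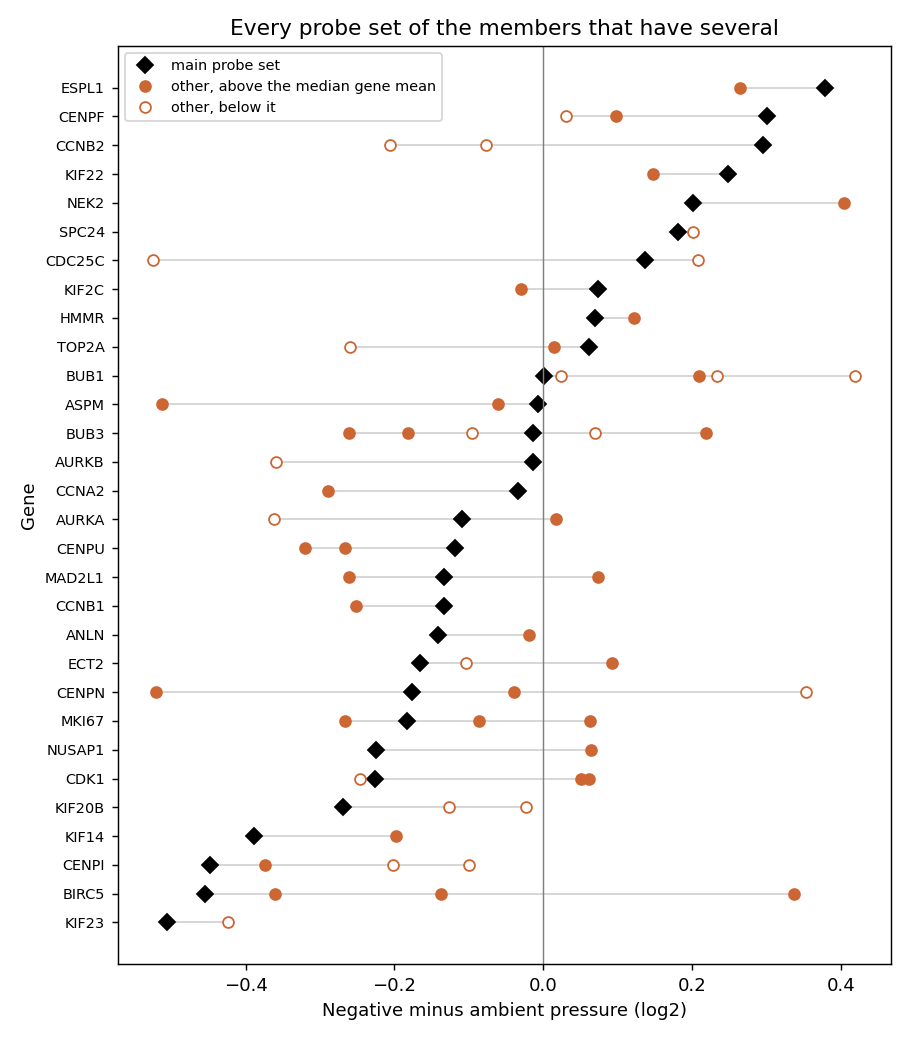
Difference between pressures (log2, horizontal axis) of every single-gene probe set of the 30 members with several, with the main probe set as a black diamond, others above the median gene mean as filled circles and dimmer ones as open circles. CENPI, KIF14 and KIF23 keep all probe sets below 0, whereas BIRC5 spans -0.46 to 0.34 and CDC25C -0.52 to 0.21.

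Beyond the set, 124 of 130 listed other mitotic genes were measured, and 1 fell. Their median was -0.07 with 75 below 0 (60.5%), and with the block 6 fell (4.84%, where 2.06% of all genes fell) and 1 rose (where 2.87% of all genes rose). At an unadjusted p below 0.05, 15 lay lower (12.1%, where 4.45% of all genes did) and 4 higher (where 7.21% of all genes did). The gene that fell without the block was TROAP, which encodes the spindle-pole protein tastin. It read 8.34, 8.55 and 8.61 at ambient and 7.86, 7.71 and 7.46 under negative pressure, a difference of -0.82 ± 0.14 (SE), or 1.76-fold lower (adjusted p = 0.0327). All 3 negative pressure arrays lay below the ambient ones. The call was lost with any 1 array left out (difference -0.91 to -0.71, adjusted p from 0.0585 to 0.180) and with the mean of its probe sets (-0.38, adjusted p = 0.230). TROAP also fell with the block (limma adjusted p = 0.00584), where 2.06% of all genes fell. Without both replicate 3 arrays it fell too (-0.66, limma adjusted p = 0.0450), where 0.759% of all genes fell.

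SKA2, of the complex that couples kinetochores to microtubule ends, read 8.71, 8.79 and 8.68 at ambient and 8.18, 8.17 and 8.23 under negative pressure. Both groups were tight, and it missed the threshold narrowly (-0.54, adjusted p = 0.0576) and fell with the block (adjusted p = 0.0173). Genes of the anaphase-promoting complex and its inhibitors lay mostly below 0, 13 of 16 with a median of -0.21. None of them passed, and with the block ANAPC10 (-0.50, adjusted p = 0.0235) and ANAPC5 (-0.47, adjusted p = 0.0330) fell. ANAPC10 stood at 0.24 with the probe set of largest variance. Regulators of mitotic entry had 13 of 17 below 0 with a median of -0.20. Of these ARPP19, which protects the phosphorylation of CDK1 substrates, fell with the block (-0.44, adjusted p = 0.0455). BORA, the activator of PLK1, did not pass (-0.41, with the block 0.0970).

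Genes of the neighbouring cell cycle steps were set beside the members without a test between lists. Of 36 DNA replication and S phase genes 25 lay below 0 with a median of -0.13, and none passed. With the block 4 fell (11.1%, where 2.06% of all genes fell): CDC45 of the replicative helicase (-0.51, adjusted p = 0.0325), GINS4 (-0.52, adjusted p = 0.0244), the cyclin gene CCNE2 (-0.65, adjusted p = 0.00672) and the polymerase gene POLE2 (-0.43, adjusted p = 0.0462). CCNE2 and POLE2 are named after their values were seen. Of 11 D-type cyclins, G1 kinases and inhibitors 8 lay above 0, and CDKN2B passed. CDKN2B encodes p15, an inhibitor of the cyclin D kinases, and read 4.45, 3.92 and 4.04 at ambient and 5.13, 5.41 and 5.74 under negative pressure. It rose 2.45-fold (1.29 ± 0.19, SE; adjusted p = 0.0220), where 0.607% of all genes rose, and its call held in 1 of the 6 fits that left out an array (adjusted p from 0.0381 to 0.136). CCND2, a D-type cyclin, stood at -0.40 (adjusted p = 0.228).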

How the data were processed

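RNA of 6 HaCaT cultures was measured on Affymetrix arrays of 54675 probe sets. The authors deposited log2 values made by RMA in Affymetrix Expression Console 1.2 (background correction, normalization between arrays, probe set summary), per the submitters' processing notes. The values lay between 0.890 and 13.4. The sources used here give no scan date or batch. Groups and replicate numbers came from the sample titles.

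Of the probe sets, 41091 named 1 gene and gave 19775 genes. Negative and ambient pressure were compared with lmFit and eBayes of limma 3.58.1 (R 4.3.3), without a block, with Benjamini-Hochberg adjustment over all genes, no filter on low values and 95% intervals from the moderated fit. Replicate numbers were taken to pair the cultures because each same-numbered correlation of deviations exceeded 0.1, as both swapped pairs of replicates 1 and 2 also did. The check does not show a shared day and cannot decide the pairing of replicates 1 and 2. Replicate 1 at ambient correlated more with negative pressure replicate 2 (0.43) than with its own number. The fit was tested on simulated data. Over 10 simulations it recovered 19.9% of 1.5-fold and 64.2% of 2-fold changes, and 3.34% of its calls were false.

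The members, role groups and lists were chosen with earlier results of these data known. By the naming rule, per-array values are given for members that passed with or without the block, up to 3 of smallest p in each role, and CDK1, CCNB1, PLK1, AURKA, AURKB, TOP2A, MKI67 and FOXM1. In the other mitotic and comparison lists, those that passed and up to 2 of smallest p are named. Promoter windows came from RefSeq (GRCh38.p14), with the first entry where a gene had several. Precision is limited by 3 arrays a group.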

Additional observations from a re-analysis of the deposited data

How the results depend on the processing

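The count of members that passed was 0 without a block and stayed 0 with an adjusted p under 0.10, repeated quantile normalization, median centring, cyclic loess, genes of low mean left out, the mean of all probe sets, the probe set of largest variance, trend and robust variance, without both replicate 3 arrays and in each of the 6 fits that left out an array. It was 3 with the replicate block (KIF23, CENPI and BIRC5), 3 with replicate 3 as a batch term (the same genes) and 3 with array weights (KIF11, CENPI and BIRC5). The count of all genes was 976 with the replicate block, 1213 with the batch term, 1145 with array weights, 372 without both replicate 3 arrays, 352 at an adjusted p under 0.10, and 7 to 145 with 1 array left out. The median of the members stayed below 0 throughout and moved between -0.10 and -0.0032 with 1 array left out, the latter without negative pressure replicate 3, where 28 of 56 lay below 0. Among the genes named with per-array values and those of the other lists, signs turned for CDC25C (-0.060 with the mean of its probe sets, -0.52 with the one of largest variance), TOP2A (-0.061 with the mean), PLK1 (0.0041 without both replicate 3 arrays), ANAPC10 (0.24 with the largest variance) and NCAPH2 (0.061 with the mean and 0.48 with the largest variance). Of the remaining members, BUB1 (-0.051), BUB3 (0.058), CENPM (0.027) and NDC80 (0.018) also changed sign without both replicate 3 arrays; their other alternatives are not listed. With 1 array left out, differences ran from -0.17 to 0.024 for PLK1, -0.24 to 0.0042 for AURKA, -0.073 to 0.031 for AURKB, -0.011 to 0.13 for TTK, -0.011 to 0.24 for UBE2C, -0.39 to 0.083 for ECT2, -0.059 to 0.22 for TOP2A and -0.082 to 0.24 for FOXM1. The causes of these moves were not tested. With 3 arrays per group, no member's 95% interval was narrower than 0.24 on either side of its difference.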

Other observations

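Condensin and cohesin genes, which shape mitotic chromosomes and hold sister chromatids together, lay on the other side from most mitotic lists: 12 of 17 were above 0 with a median of 0.07, and none passed. NCAPG2 of condensin stood at -0.31 (limma adjusted p = 0.389) and NCAPH2 at -0.36 (adjusted p = 0.199), though NCAPH2 stood at 0.061 with the mean of its probe sets and at 0.48 with the one of largest variance. In the list of MuvB, E2F and checkpoint regulators, 10 of 20 lay below 0 and none passed. MYB, a relative of MYBL2, read 4.92, 4.88 and 4.81 at ambient and 5.16, 5.45 and 5.67 under negative pressure, a difference of 0.55 (adjusted p = 0.141) that rose with the replicate block (adjusted p = 0.0337). MYBL2 itself stood at -0.23 in the same arrays, and the difference between the 2 genes was not tested. E2F3 stood at -0.39 (adjusted p = 0.351). CKAP5, a microtubule polymerase of the spindle, stood at 0.38 (adjusted p = 0.252), and SGO1, the protector of centromeric cohesin, at -0.38 (adjusted p = 0.372). In the numbered pairs SGO1 differed by -0.55, -0.66 and 0.06. Without both replicate 3 arrays it fell (-0.60, limma adjusted p = 0.0385), where 0.759% of all genes fell. SGO1 was 1 of 4 other mitotic genes that passed in that fit, with SKA2, TROAP and LMNB1 (-0.85). The mean of SGO1, 4.80, lay below the median gene mean of 4.997.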
